A study of Mus musculus with 6 samples.

Results

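Calcium pumps, calcium release channels of the endoplasmic reticulum (ER) and the genes of store-operated calcium entry were followed through 3 cell populations that had been sorted from islets of adult mice. The 9 genes were taken by symbol, with earlier results of these data known. All 9 were found among the 46959 rows of the table: Atp2a2, Atp2a3, Atp2b1, Ryr2, Itpr1, Itpr2, Itpr3, Stim1 and Orai1. Every mouse carried both an Ins1-H2b-mCherry reporter, which labels nuclei of cells that use the insulin 1 promoter, and a Ucn3-eGFP reporter, which labels cells that use the promoter of urocortin 3. Immature beta cells were sorted as positive for mCherry alone, mature beta cells as positive for mCherry and eGFP, and double negative cells as negative for both, so that the last group is defined by what it lacks and holds several cell types. No group without the reporters was included. Each population has 2 RNA-seq libraries, 6 in all. The islets of 10 to 12 adult females were pooled per replicate, per the design text, and cultured overnight in 5.5 mM glucose before the sort.

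A beta cell releases insulin when calcium enters the cytosol. Calcium is cleared from the cytosol by pumps of the SERCA family, which fill the ER store, and by pumps of the PMCA family, which push it out across the plasma membrane. The store is released through IP3 receptors, which open when surface receptors activate phospholipase C, or through ryanodine receptors. When the store empties, the ER protein Stim1 senses the loss and opens Orai channels in the plasma membrane, which is called store-operated calcium entry. Beta cells are known for a high content of SERCA2 and SERCA3, the products of Atp2a2 and Atp2a3.

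The values are RPKM, reads divided by gene length and by the size of the library, so that levels of different genes can be set side by side. The RPKM steps correspond to 2393841 and 3448926 reads in genes for the immature libraries, 23718091 and 26824380 for the mature and 22063880 and 22731664 for the double negative ones, so the immature values are the least precise. The genes of the 2 reporters followed the order of the labels but were not absent where the sort was negative. Ins1 measured 11992.31 and 13388.57 RPKM in immature beta cells, 46605.51 and 49446.95 RPKM in mature beta cells and 335.68 and 735.21 RPKM in the double negative sort. It was thus lower in immature than in mature cells, although both were sorted as positive for mCherry. Ucn3 measured 20.35 and 31.78 RPKM in immature cells, which were sorted without eGFP. It stood at 93.85 and 97.71 RPKM in mature cells and 1.07 and 2.83 RPKM in double negative cells. Markers of other cells were not absent from the immature libraries. All 7 alpha, 5 delta, 2 PP, 11 macrophage, 10 endothelial, 10 mesenchymal and 11 acinar markers were higher in both immature than in both mature libraries, and none of these genes was at 0 in both libraries of any population. Summed acinar markers stood at 8295 and 26020 RPKM in immature beta cells, 158.6 and 108.6 RPKM in mature beta cells and 226.1 and 1961 RPKM in the double negative sort. The labels call replicate 1 male and replicate 2 female, but Xist, which is transcribed from the inactive X of females, measured 21.41 to 129.15 RPKM in all 6 libraries. The Y-linked gene Eif2s3y was at most 0.10 RPKM in the 3 libraries labelled male and reached 2.23 RPKM in an immature library labelled female. No comparison here uses the sex labels.

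Differences below are on the log2(RPKM + 1) scale and come from limma fitted to 13367 genes over all 6 libraries, with Benjamini-Hochberg adjusted p-values and a threshold of 0.05. This scale understates the change of genes near 1 RPKM. Calls were common: 65.3% of the tested genes passed between immature and mature cells, 54.3% between mature and double negative cells and 56.6% between immature and double negative cells. The 3 comparisons share libraries with each other. In bulk libraries of sorted cells, fewer cells of a type and less RNA per cell cannot be told apart.

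Promoter sequence is shown because, as described further on, the SERCA genes were lower in immature cells than in mature cells, while Itpr2, Itpr3 and Orai1 were highest in immature cells. RefSeq windows (GRCm38.p6, 250 bases before to 50 after a start) were matched for 7 of the 9 genes, with 8 windows, Atp2b1 having 2; Atp2a2 and Itpr1 were not matched. The windows of Atp2a3, with the opposite pattern to the other 3, and of Itpr2, Itpr3 and Orai1 follow, 5′ to 3′, with capitals marking the Sp1 box GGGCGG and the CCAAT box on either strand.
Atp2a3, chr11:72960919-72961218, plus strand: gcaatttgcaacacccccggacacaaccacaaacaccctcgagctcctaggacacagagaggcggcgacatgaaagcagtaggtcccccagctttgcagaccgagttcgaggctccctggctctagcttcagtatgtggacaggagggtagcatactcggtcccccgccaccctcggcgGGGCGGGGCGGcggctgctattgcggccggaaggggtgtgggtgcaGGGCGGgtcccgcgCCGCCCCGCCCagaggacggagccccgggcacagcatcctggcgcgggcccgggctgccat
Itpr2, chr6:146502174-146502473, minus strand: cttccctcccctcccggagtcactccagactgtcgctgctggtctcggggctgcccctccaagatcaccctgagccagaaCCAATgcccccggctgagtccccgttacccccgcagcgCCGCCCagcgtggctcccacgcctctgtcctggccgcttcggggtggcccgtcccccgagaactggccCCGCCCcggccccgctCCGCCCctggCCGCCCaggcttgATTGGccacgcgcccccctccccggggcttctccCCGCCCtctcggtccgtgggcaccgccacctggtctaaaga
Itpr3, chr17:27057054-27057353, plus strand: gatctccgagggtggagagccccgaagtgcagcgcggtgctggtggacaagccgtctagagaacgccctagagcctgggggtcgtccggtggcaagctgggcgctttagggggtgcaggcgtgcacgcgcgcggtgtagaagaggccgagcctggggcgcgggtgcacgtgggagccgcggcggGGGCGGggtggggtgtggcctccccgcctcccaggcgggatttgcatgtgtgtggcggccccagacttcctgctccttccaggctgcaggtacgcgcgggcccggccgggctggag
Orai1, chr5:123014824-123015123, plus strand: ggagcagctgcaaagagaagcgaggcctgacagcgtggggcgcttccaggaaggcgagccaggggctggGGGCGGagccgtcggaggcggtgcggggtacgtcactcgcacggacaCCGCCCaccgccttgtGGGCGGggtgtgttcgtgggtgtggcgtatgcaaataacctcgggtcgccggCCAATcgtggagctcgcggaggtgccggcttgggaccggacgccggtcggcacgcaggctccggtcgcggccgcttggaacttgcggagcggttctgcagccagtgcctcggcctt

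All 8 windows held GGGCGG, on either strand and counting overlapping matches, with 5 matches for Atp2a3, 5 for Itpr2, 1 for Itpr3 and 3 for Orai1, where 35.7% of all 32851 windows hold it. CCAAT was found for Itpr2 and Orai1 only, and in 37.4% of all windows. None of the 8 windows held TATAAA (13.6% of all windows), TGACGTGG (0.676%), TGACGTCA (1.79%), ATTGCATC (0.496%) or the full ER stress response element (0.119%). The window of Atp2a3 has 68.3% G and C, that of Itpr2 73.3%, of Itpr3 72.3% and of Orai1 70.3%, beside a median of 52.7% over all windows. All 8 windows were above that median, from 65.3% for Ryr2 to 79.3% for Atp2b1. GGGCGG is made of G and C alone, and the 35.7% was not taken over windows of like G and C content. A match is a description of sequence, not a binding site.

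Atp2a2, which encodes SERCA2 (ENSMUSG00000029467.15, chromosome 5, 122453513 to 122502225, minus strand, GRCm38), was the most abundant of the 9 genes in every library. It measured 138.28 and 147.57 RPKM in immature beta cells, 357.22 and 351.96 RPKM in mature beta cells and 89.79 and 91.99 RPKM in the double negative sort. Mature cells were highest, double negative cells lowest, and no 2 populations overlapped. Against mature cells the immature mean was 2.48-fold lower (log2 difference -1.31, SE 0.05, limma adjusted p = 1.08e-05). Mature cells were 3.9-fold above double negative cells (1.95, SE 0.05, limma adjusted p = 7.36e-06). Immature cells still exceeded double negative cells 1.57-fold (0.65, SE 0.05, limma adjusted p = 0.000253).

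Atp2a3, which encodes SERCA3 (ENSMUSG00000020788.15, chromosome 11, 72961169 to 72993044, plus strand), was second. It stood at 74.28 and 80.43 RPKM in immature beta cells, 197.49 and 202.17 RPKM in mature beta cells and 66.15 and 61.88 RPKM in the double negative sort, in the same order as Atp2a2 and again without overlap. Immature cells lay 2.58-fold below mature cells (-1.36, SE 0.06, limma adjusted p = 1.69e-05), and mature cells 3.12-fold above double negative cells (1.63, SE 0.06, limma adjusted p = 1.34e-05). Between immature and double negative cells the difference was small, at 0.27 (SE 0.06, limma adjusted p = 0.0124). It turned to -0.05 under median-ratio rescaling (adjusted p = 0.637), and without double negative replicate 2 it had a limma adjusted p = 0.065.

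The share of each SERCA gene differed little between the beta populations. Atp2a2 made up 65.1% and 64.7% of the summed Atp2a2 and Atp2a3 RPKM in immature cells, 64.4% and 63.5% in mature cells and 57.6% and 59.8% in double negative cells. The sum was 212.6 and 228.0 RPKM in immature beta cells, 554.7 and 554.1 RPKM in mature beta cells and 155.9 and 153.9 RPKM in the double negative sort. Beta markers followed the same order of populations: the 9 listed genes summed to 72880 and 78020 RPKM in immature beta cells, 246500 and 263300 RPKM in mature beta cells and 4711 and 7019 RPKM in the double negative sort. The part of this in the SERCA differences was not tested.

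**Figure D1:**
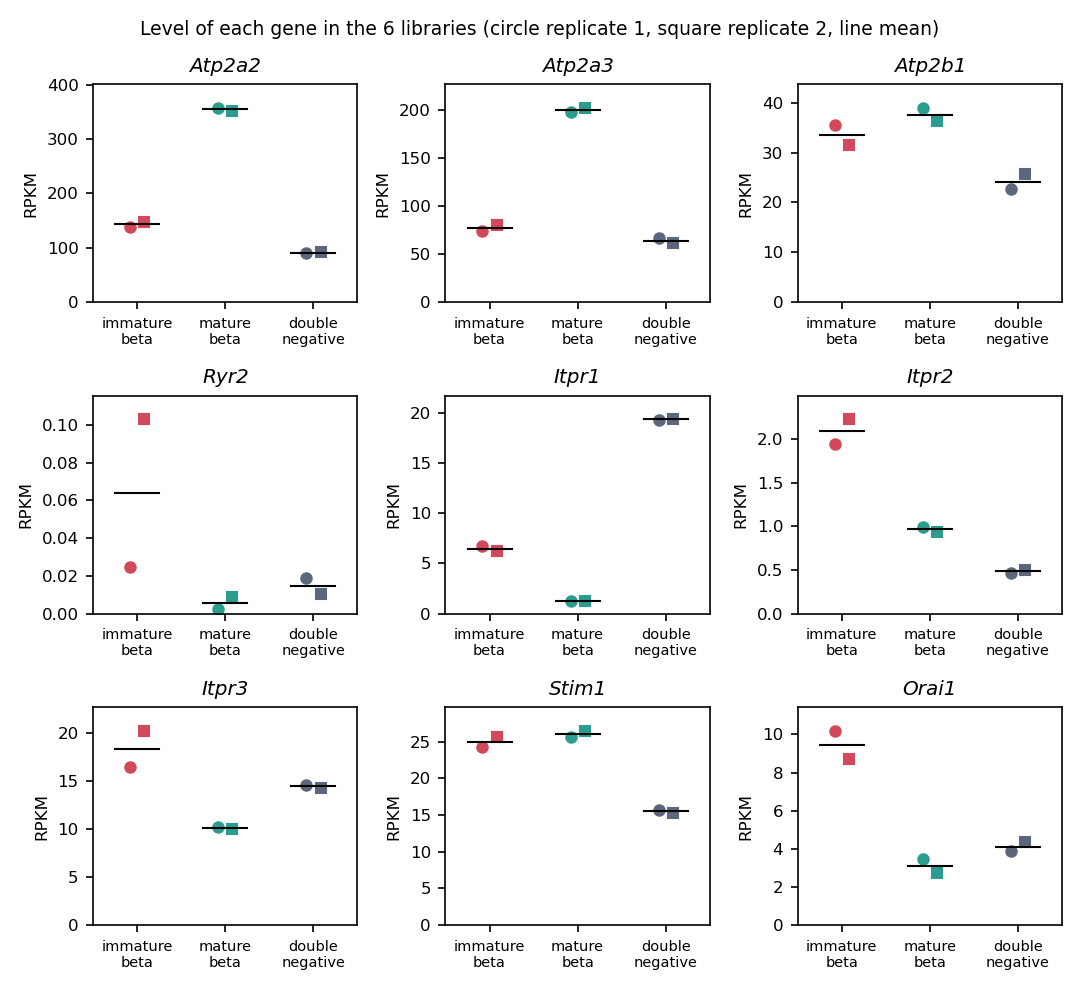
Level of each of the 9 genes in RPKM (vertical axes, linear from 0, a separate scale per gene) in the 3 sorted populations. Circles are replicate 1, squares replicate 2 and lines the mean of both. Atp2a2 and Atp2a3 are highest in mature cells, Itpr1 in double negative cells, and Itpr2, Itpr3 and Orai1 in immature cells, while Ryr2 stays at or under 0.103 RPKM.

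Atp2b1 encodes PMCA1, a housekeeping calcium pump of the plasma membrane (ENSMUSG00000019943.10, chromosome 10, 98914406 to 99026143, plus strand). Its values were 35.62 and 31.43 RPKM in immature beta cells, 38.99 and 36.27 RPKM in mature beta cells and 22.65 and 25.72 RPKM in the double negative sort. The immature values lay just under the mature ones, and both beta populations lay above the double negative cells. The difference between immature and mature cells did not pass (-0.16, SE 0.09, 95% interval -0.39 to 0.06, limma adjusted p = 0.163). Under median-ratio rescaling it was -0.60 and passed (adjusted p = 0.000944), and with all library sums set equal it was 0.16 (adjusted p = 0.233), so its direction is not settled here. Mature cells exceeded double negative cells 1.56-fold (0.62, SE 0.09, limma adjusted p = 0.00216). Immature cells exceeded them 1.39-fold (0.46, SE 0.09, limma adjusted p = 0.00757), a call that was lost under median-ratio rescaling (0.15), under quantile normalization (0.21) and without double negative replicate 1 (0.37, adjusted p = 0.0511).

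The summed SERCA level per unit of Atp2b1 was 5.97 and 7.25 in immature beta cells, 14.23 and 15.28 in mature beta cells and 6.89 and 5.98 in the double negative sort. Scaling a library by 1 factor leaves such a ratio as it is. Mature cells stood apart by it, and immature and double negative cells overlapped. Atp2b1 made up 77.2% to 84.0% of the summed PMCA genes (Atp2b1 to Atp2b4) in the beta libraries and 69.9% and 71.7% in the double negative libraries.

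All 3 IP3 receptor genes were higher in immature than in mature cells, in contrast to both SERCA genes, although quantile normalization turned the sign of Itpr2. Itpr1 (ENSMUSG00000030102.11, chromosome 6, 108213096 to 108551109, plus strand), the receptor best known from neurons, measured 6.71 and 6.23 RPKM in immature beta cells, 1.28 and 1.28 RPKM in mature beta cells and 19.31 and 19.34 RPKM in the double negative sort. The 3 populations were far apart, with replicates close together, and immature cells in between. Itpr1 was 15.1-fold lower in mature than in double negative cells by mean RPKM (-3.15, SE 0.07, limma adjusted p = 5.01e-06). Immature cells were 5.04-fold above mature cells (1.71, SE 0.07, limma adjusted p = 1.23e-05) and 2.99-fold below double negative cells (-1.44, SE 0.07, limma adjusted p = 4.75e-05). Markers of alpha, delta and PP cells had the same order. The alpha markers summed to 28210 and 19170 RPKM in immature beta cells, 575.1 and 766.9 RPKM in mature beta cells and 173200 and 167100 RPKM in the double negative sort. Their part in the Itpr1 values was not tested.

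Itpr3, the receptor type with the lowest sensitivity to IP3 (ENSMUSG00000042644.9, chromosome 17, 27057304 to 27122223, plus strand), measured 16.50 and 20.25 RPKM in immature beta cells, 10.19 and 9.96 RPKM in mature beta cells and 14.65 and 14.33 RPKM in the double negative sort. Immature cells were highest and mature cells lowest. The rise from mature to immature cells was 1.82-fold (0.80, SE 0.10, limma adjusted p = 0.000827). Mature cells were lower than double negative cells (-0.48, SE 0.10, limma adjusted p = 0.00803), with limma adjusted p = 0.0548 without mature replicate 2 and 0.056 without double negative replicate 1. Immature cells passed narrowly over double negative cells (0.32, SE 0.10, limma adjusted p = 0.0362), a call that 8 of the alternative fits lost, with a log2 difference of 0.01 under median-ratio rescaling and 0.03 under quantile normalization.

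Itpr2, the receptor type with the highest sensitivity to IP3 (ENSMUSG00000030287.15, chromosome 6, 146108299 to 146502223, minus strand), was scarce everywhere. It measured 1.95 and 2.23 RPKM in immature beta cells, 0.99 and 0.94 RPKM in mature beta cells and 0.47 and 0.50 RPKM in the double negative sort. It entered the test only through the immature libraries, where it is highest, so its difference there is in part fixed by the filter. By mean RPKM immature cells were 2.16-fold above mature cells (0.65, SE 0.10, limma adjusted p = 0.00208), but quantile normalization turned the sign (-0.18, adjusted p = 0.188). Immature cells were 4.32-fold above double negative cells (1.06, SE 0.10, limma adjusted p = 0.000445). Mature against double negative cells gave 0.41 (SE 0.10, limma adjusted p = 0.0162), and leaving out any 1 of the 4 libraries compared lost this call (limma adjusted p from 0.0699 to 0.123).

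The immature libraries in which Itpr2 and Itpr3 were highest also held the highest acinar markers, and acinar cells are known to carry both receptors. Between the immature replicates the acinar marker sum went from 8295 to 26020 RPKM, while the ratio of replicate 2 to replicate 1 was 1.23 for Itpr3, 1.15 for Itpr2 and 0.93 for Itpr1. Macrophage and endothelial markers were likewise highest in the immature libraries, at 1092 and 1144 RPKM and at 846 and 794.5 RPKM, against 59.15 and 59.86 RPKM and 4.539 and 3.017 RPKM in mature cells. Their part in the IP3 receptor values was not tested.

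The mix of receptor types differed between populations. Itpr3 held 81.7% of the summed IP3 receptor RPKM in both mature libraries, 65.6% and 70.5% in the immature and 42.5% and 41.9% in the double negative libraries. Itpr1 held 10.3% and 10.5% in mature, 26.7% and 21.7% in immature and 56.1% and 56.6% in double negative cells, where it was the main type. The share of Itpr2 was 7.7% to 8.0% in all 4 beta libraries and 1.4% and 1.5% in double negative cells.

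The summed SERCA RPKM per summed IP3 receptor RPKM was 8.45 and 7.94 in immature beta cells, 44.50 and 45.45 in mature beta cells and 4.53 and 4.50 in the double negative sort. With 2 libraries a group an exact permutation test cannot pass a threshold of 0.05, so shares and ratios are given as descriptions.

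**Figure D2:**
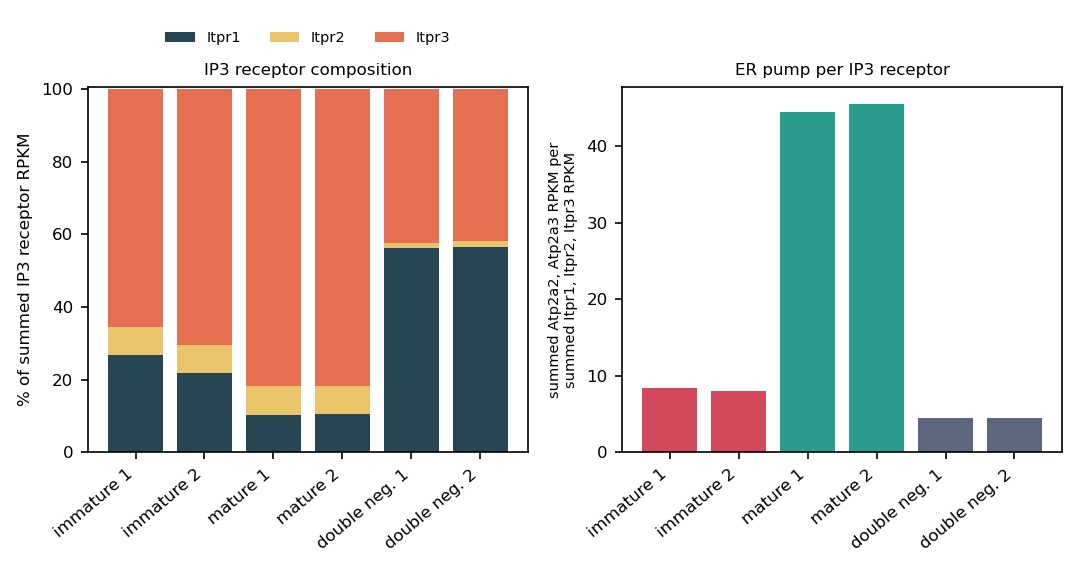
Left, share of Itpr1, Itpr2 and Itpr3 in their summed RPKM (percent) in each library. Right, summed Atp2a2 and Atp2a3 RPKM divided by summed Itpr1, Itpr2 and Itpr3 RPKM in each library, a ratio without unit. Itpr1 is the largest part in double negative cells only, and the ratio is 44.50 and 45.45 in the mature libraries against 8.45 or less elsewhere.

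Ryr2, the ryanodine receptor of heart muscle (ENSMUSG00000021313.16, chromosome 13, 11553102 to 12106945, minus strand), was almost undetected. It measured 0.0248 and 0.103 RPKM in immature beta cells, 0.0025 and 0.00885 RPKM in mature beta cells and 0.0188 and 0.0104 RPKM in the double negative sort. These values rest on 1 and 6 reads, 1 and 4 reads, and 7 and 4 reads, about the fewest that fit the values. The highest upper limit of the 95% Poisson intervals was 0.225 RPKM, in immature replicate 2, and in the mature libraries it was 0.0139 and 0.0227 RPKM (counting error only). Ryr2 was therefore outside the filter of 1 RPKM in 2 libraries. With no filter, none of the 3 comparisons passed, with limma adjusted p from 0.232 to 0.931. The other ryanodine receptor genes were low too and were also not tested: Ryr1 and Ryr3 are the types of skeletal muscle and of brain.

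Stim1, the ER calcium sensor (ENSMUSG00000030987.5, chromosome 7, 102267806 to 102437319, plus strand), had the smallest difference between the beta populations on the deposited scale. It measured 24.27 and 25.71 RPKM in immature beta cells, 25.63 and 26.50 RPKM in mature beta cells and 15.69 and 15.31 RPKM in the double negative sort. The beta populations overlapped, and both lay above double negative cells. Immature minus mature was -0.06 (SE 0.06, 95% interval -0.20 to 0.08, limma adjusted p = 0.392). That value moved with the scaling of libraries, to -0.49 after median-ratio rescaling and -0.17 after quantile normalization, both past the threshold, and to 0.27 with all library sums set equal, also past it. Over double negative cells Stim1 was 1.68-fold higher in mature cells (0.71, SE 0.06, limma adjusted p = 0.000179) and 1.61-fold higher in immature cells (0.66, SE 0.06, limma adjusted p = 0.000308).

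Orai1, the pore of store-operated entry (ENSMUSG00000049686.14, chromosome 5, 123015074 to 123030456, plus strand), begins 512.8 kb from the 5′ end of Atp2a2 on the same chromosome. It measured 10.19 and 8.72 RPKM in immature beta cells, 3.47 and 2.73 RPKM in mature beta cells and 3.87 and 4.33 RPKM in the double negative sort. The immature values rest on 56 and 69 reads. Both immature libraries exceeded all 4 others. Immature cells were 3.05-fold above mature cells (1.35, SE 0.13, limma adjusted p = 0.000267) and 2.31-fold above double negative cells (1.03, SE 0.13, limma adjusted p = 0.00113). Mature against double negative cells did not pass (-0.32, SE 0.13, 95% interval -0.63 to -0.01, limma adjusted p = 0.0763). Of the alternative fits 5 called that difference, among them voom on the recovered reads (-0.42, adjusted p = 0.0172). Macrophage and endothelial markers were highest in the same immature libraries, with the sums given for the IP3 receptors, and their part in the Orai1 values was not tested.

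Sensor and pore therefore stood in different proportions. Stim1 per Orai1 was 2.38 and 2.95 in immature beta cells, 7.38 and 9.71 in mature beta cells and 4.05 and 3.53 in the double negative sort. Of the summed Orai1, Orai2 and Orai3 RPKM, Orai1 held 31.4% and 31.0% in immature beta cells, 13.1% and 10.8% in mature beta cells and 15.2% and 18.2% in the double negative sort. Orai3 was the most abundant pore gene by mean RPKM in each population and its mean was 16.36 RPKM in immature beta cells, 15.81 RPKM in mature beta cells and 16.38 RPKM in the double negative sort, with limma adjusted p from 0.675 to 0.976. Orai2, a pore that forms channels with Orai1, differed too, with less in immature than in mature cells (-0.53, SE 0.09, limma adjusted p = 0.00326). Stim1 made up 68.6% to 79.4% of Stim1 plus Stim2 in the 6 libraries.

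Counted over the set, 8 of the 9 genes were tested. Between immature and mature cells 4 were higher (Itpr1, Itpr2, Itpr3, Orai1), 2 lower (Atp2a2, Atp2a3) and 2 did not pass, where 65.3% of all tested genes were called, 49.8% as higher and 15.5% as lower. Between mature and double negative cells 5 were higher, 2 lower and 1 did not pass, beside 54.3% of all genes called, 23.1% higher and 31.2% lower. In immature against double negative cells 7 were higher and 1 (Itpr1) lower, beside 56.6% of all genes, 45.9% higher and 10.6% lower. Itpr2, counted as higher in immature cells in both comparisons, passed the filter only through the immature libraries. Its sign against mature cells turned under quantile normalization (-0.18). The shares called among the 9 genes are not read as particular to them. Their median differences were 0.29, 0.51 and 0.55 in the same order, beside 0.29, -0.08 and 0.24 over all tested genes.

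The direction of many calls moved with the scaling of libraries. Ins2 alone took 12.0% and 12.4% of summed RPKM in immature and 33.2% and 34.8% in mature libraries, and Gcg 40.3% and 38.9% in double negative libraries. For immature against mature cells 76.2% of calls were higher as deposited, 45.2% after median-ratio rescaling, 36.8% after quantile normalization and 91.2% with equal library sums, as the median of all genes moved from 0.285 to -0.074, -0.171 and 0.619. For mature against double negative cells these shares were 42.6%, 52.4%, 52.4% and 28.3%, and for the immature and double negative pair 81.2%, 49.6%, 39.7% and 89.3%. Relative to the median of all genes, the falls of Atp2a2 and Atp2a3 in immature cells are larger than the values given above. By the same shift the rises of Itpr1, Itpr2, Itpr3 and Orai1 are smaller. After median-ratio rescaling they were 1.38, 0.39, 0.39 and 0.98 in that order. Atp2a2 and Atp2a3 kept their direction and their call against mature cells under all 16 alternatives, as did the rises of Itpr1, Itpr3 and Orai1.

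**Figure D3:**
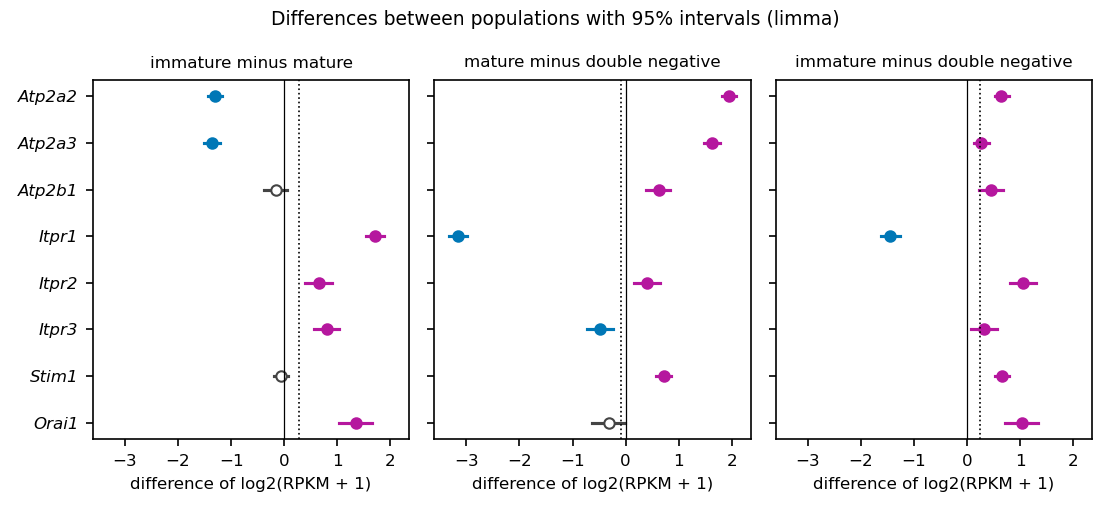
Difference of log2(RPKM + 1) with its 95% interval (horizontal axis) for the 8 tested genes in the 3 comparisons. Filled points passed the threshold, purple higher and blue lower in the population named first, and open points did not pass. The dotted line is the median of all 13367 tested genes. Atp2a2 and Atp2a3 lie far left of it in immature minus mature, at -1.31 and -1.36, and Itpr1 at -3.15 is the lowest value in mature minus double negative.

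Among other calcium pumps and their regulators, 6 of the 12 genes in the table were tested. In immature against mature cells 3 were higher and 1 lower, the counts being 0 and 3 after median-ratio rescaling, and the list's median difference was 0.19 beside 0.29 over all tested genes. Atp2c1, the calcium pump of the Golgi, averaged 16.06 RPKM in immature beta cells, 19.05 RPKM in mature beta cells and 9.326 RPKM in the double negative sort and was higher in mature than in double negative cells (0.96, SE 0.09, limma adjusted p = 0.000282). Slc8a1, the sodium-calcium exchanger of the plasma membrane, followed it with 0.70 (SE 0.15, limma adjusted p = 0.00864). These were the 2 higher genes in mature against double negative cells, where 3 were lower. The list's median there was -0.32, beside -0.08 over all tested genes. Immature against double negative cells gave 2 higher and 0 lower as deposited, and 1 and 2 after median-ratio rescaling. The SERCA inhibitor genes Pln and Sln were listed at 0 in all 6 libraries. Mrln, a related small inhibitor known from skeletal muscle, was lower in mature cells than in immature cells (8.642 against 12.91 RPKM, log2 difference 0.52, SE 0.13) and than in double negative cells. The call between immature and mature cells was lost under median-ratio rescaling and under quantile normalization, where 0 genes of this list were higher in immature cells.

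Of 28 tested release channels, store-operated entry genes and their regulators, 9 were higher and 7 lower in immature than in mature cells (after median-ratio rescaling 4 and 16), with a median difference of 0.08. Saraf, which turns store-operated entry off, was highest in mature cells, at 178.5 RPKM in immature beta cells, 328.3 RPKM in mature beta cells and 153.1 RPKM in the double negative sort (immature minus mature -0.88, SE 0.07, limma adjusted p = 0.000123). Immature minus double negative was 0.22 and turned to -0.10 under median-ratio rescaling. Wfs1, an ER membrane protein whose loss causes Wolfram syndrome, was highest there too, at 33.73, 67.53 and 20.73 RPKM (-0.98, SE 0.08, limma adjusted p = 0.000124). Fkbp1b, the FK506-binding protein that steadies ryanodine receptors, averaged 28.68 RPKM in immature beta cells, 48.26 RPKM in mature beta cells and 4.485 RPKM in the double negative sort, while Ryr2 was at or under 0.103 RPKM in the same libraries. Tpcn2, a channel of acidic stores, went the other way, at 10.74 RPKM in immature beta cells, 2.262 RPKM in mature beta cells and 1.987 RPKM in the double negative sort (immature minus mature 1.84, SE 0.12, limma adjusted p = 6.93e-05). Bcl2, a survival factor that binds IP3 receptors, was higher in immature cells as well (1.10, SE 0.10). The store-entry regulator Cracr2b averaged 0.2578 RPKM in mature and 3.009 RPKM in immature cells (1.67, SE 0.10), but it passed the filter only through the immature libraries, so this difference too is in part fixed by the filter.

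Between mature and double negative cells the same list had 11 higher and 4 lower, led by Fkbp1b (3.17, SE 0.17, limma adjusted p = 3.98e-05), Wfs1 (1.66), Bcl2 (-1.60) and Erlin1, which takes part in IP3 receptor turnover (1.11). Between immature and double negative cells 17 were higher and 3 lower as deposited, 7 and 5 after median-ratio rescaling and 6 and 5 after quantile normalization.

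Calcium-binding proteins and chaperones of the ER lumen divided. Of 17 tested, 5 were higher and 7 lower in immature than in mature cells (after median-ratio rescaling 4 and 13), with a median difference of -0.05. The lower ones included the main luminal buffer calreticulin, Calr (266.6 against 392.8 RPKM, -0.56, SE 0.05, limma adjusted p = 3e-04), and the chaperone BiP, Hspa5 (420.6 against 702.1 RPKM, -0.74, SE 0.06, limma adjusted p = 0.000165); these 2 were named for their role after their values were seen. The 4 largest differences were rises. Rcn3, a reticulocalbin of the secretory pathway, averaged 17.80 RPKM in immature beta cells, 0.3743 RPKM in mature beta cells and 54.61 RPKM in the double negative sort (immature minus mature 3.77, SE 0.15, limma adjusted p = 1.01e-05). Calb1, a cytosolic calcium buffer placed in this list, rose by 1.52, the secretory pathway protein Calu by 1.39 and Rcn1 by 1.22. Against double negative cells, mature cells had 5 higher and 6 lower. The largest differences were falls, in Rcn3 (-5.34, SE 0.15), Calb1 (-2.95) and Rcn1 (-2.26). Next came Nucb2, the precursor of nesfatin, up by 1.35 (SE 0.08). Immature cells had 2 higher and 8 lower as deposited, 1 and 15 after median-ratio rescaling and 2 and 13 after quantile normalization.

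Of 14 tested genes of IP3 production and removal, 5 were higher and 3 lower in immature than in mature cells (after median-ratio rescaling 4 and 8), with a median difference of -0.05. The largest differences were in phospholipases C, which make IP3. Plcd1 averaged 2.184 against 0.1578 RPKM (1.43, SE 0.21), but it passed the filter only through the immature libraries, so its difference is in part fixed by the filter. Averages were, for Plcg2, a form of blood cells, 8.404 against 2.735 RPKM (1.33, SE 0.08), for Plcb3 9.517 against 3.174 RPKM (1.33, SE 0.10) and for Plcg1 8.809 against 4.897 RPKM (0.73, SE 0.07). These rises went with those of the IP3 receptors in the same libraries, which also had the highest macrophage markers, and the part of the latter was not tested. Itpkb, a kinase that removes IP3, averaged 12.94 RPKM in immature beta cells, 14.67 RPKM in mature beta cells and 2.503 RPKM in the double negative sort, and was higher in mature than in double negative cells by 2.16 (SE 0.07, limma adjusted p = 9.81e-06). Mature against double negative cells gave 3 higher and 2 lower. Immature against double negative cells gave 7 higher and 2 lower as deposited, 6 and 5 after median-ratio rescaling and 4 and 6 after quantile normalization.

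**Figure D4:**
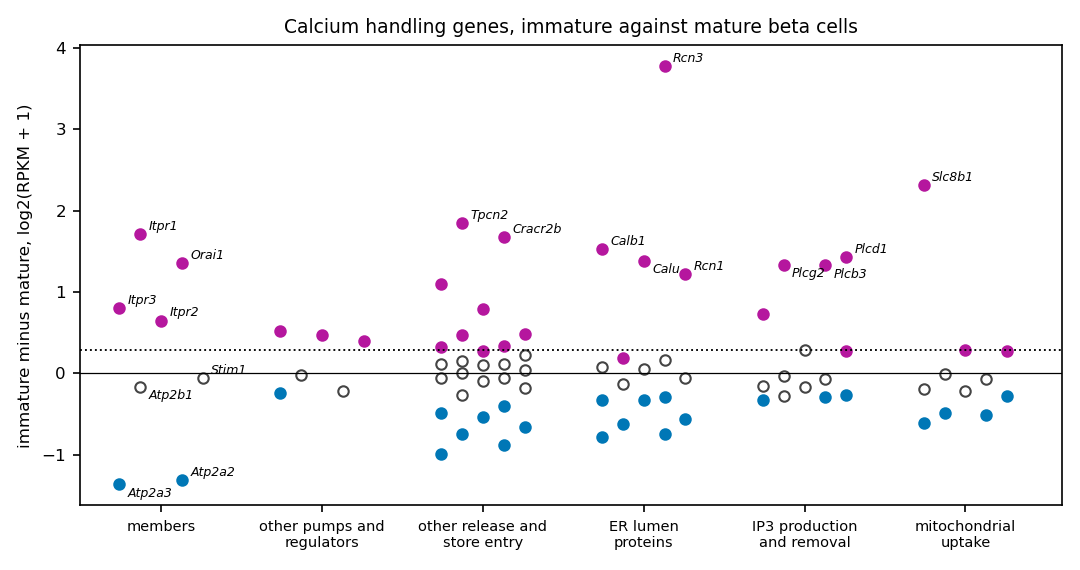
Immature minus mature difference of log2(RPKM + 1) (vertical axis) for each tested gene of the 9-gene set and of 5 lists of related genes (columns; horizontal position within a column has no meaning). Filled points passed the limma threshold, purple higher and blue lower in immature cells, open points did not, and the dotted line is the median of all tested genes, 0.285. Atp2a2 and Atp2a3 have the lowest values shown, and Rcn3 and Slc8b1 the highest.

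Genes with the pattern most like each member were taken by Pearson correlation of log2(RPKM + 1) over the 6 libraries, among 7529 other tested genes (7530 for Itpr2) with a mean of at least 5 RPKM. The libraries form 3 groups of 2, so high correlations are common: 309 to 771 genes reached 0.95 for each member. Closest to Atp2a2 were the cationic amino acid transporter gene Slc7a1 (0.99996), the mitochondrial folate enzyme gene Aldh1l2 (0.99961) and the phosphatase gene Ptpn11 (0.9995). Closest to Atp2a3 were Slc25a44, a mitochondrial carrier (0.99964), Syp, the vesicle protein synaptophysin (0.99909), and Slc44a3 (0.99904). For Itpr1 they were Aldh6a1, an enzyme of valine breakdown (0.99956), Calb1 (0.99933) and the potassium channel gene Kcnk3 (0.99917). Kcnk3 measured 7.04 and 7.07 RPKM in immature beta cells, 0.36 and 0.31 RPKM in mature beta cells and 35.36 and 30.79 RPKM in the double negative sort.

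For Itpr3 the closest were Tspo, a protein of the outer mitochondrial membrane (0.99943), Cdc42bpb (0.99896) and Ptma (0.99858). For Itpr2 they were the integrin gene Itgb5 (0.99872), Mlxip (0.99858) and Gipr, the receptor of the incretin GIP (0.99693). For Orai1 they were Nfx1 (0.99899), the splicing factor gene Luc7l2 (0.99884) and Ccnl1 (0.99879). Stim1 was closest to Dnajc16 (0.99804), the translation release factor gene Gspt1 (0.99804) and the calcium-binding annexin gene Anxa5 (0.99799), and Atp2b1 to Triap1 (0.99472), Mreg (0.99469) and Ddx52 (0.99431). No gene was nearest to more than 1 of the 8 members.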

How the data were processed

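Per the labels' protocols, sorted cells were collected in Trizol and libraries were made with a TruSeq RNA kit. The authors deposited a table of RPKM values with 1 column per library. Per the submitters' processing notes, the tools were STAR 2.5, featureCounts and edgeR 3.14.0, and the build GRCm38.p4. The annotation, filters and strand setting were not given in the sources used here. Gene positions are from GENCODE M21 (GRCm38).

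Groups and replicate numbers come from the titles. The design text gives pools of islets per replicate and states no other separation, so the p-values reflect only how these libraries vary. Genes of at least 1 RPKM in at least 2 of 6 libraries entered limma 3.58.1 as log2(RPKM + 1) (R 4.3.3, intensity trend, group means over all 6 libraries, 3 residual degrees of freedom, Benjamini-Hochberg adjustment). Limma uses a single variance for all groups of a gene, while replicate differences over genes had an SD of 0.393 (immature), 0.132 (mature beta cells) and 0.222 (double negative sort). The procedure was also run on simulated data, in which few genes changed and all libraries had the same spread beyond counting error. That setting differs from these data, so the simulation does not test the calls given here.

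Whole reads were recovered from the RPKM steps by finding, per gene, a length that makes all 6 libraries whole within 0.005 reads. The M21 exonic length did so for 8990 of 13367 tested genes. For the others about the smallest length that fits was taken. A multiple of it would fit as well, so their reads are about the fewest possible. For Atp2b1 and Stim1 the length was 7130 and 3597 bases, against 15218 and 10371 in M21, so levels between genes depend on the authors' gene models. Limma's voom was run on these reads.

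The 9 genes and the lists were chosen with earlier results of these data known. All 9 were named, with up to 4 genes of each list with the largest differences among those past the threshold, the 3 most similar genes of each member, and Saraf, Orai2, Orai3, Calr and Hspa5, picked for their role after their values were seen. A gene that the rule would name is not reported here.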

Additional observations from a re-analysis of the deposited data

How the results depend on the processing

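Of 381 recomputed differences of the 8 tested genes over 16 alternatives, 350 kept their direction and side of the threshold, 19 lost a call, 8 gained 1 and 4 reversed. The reversed ones were Atp2b1 (0.16) and Stim1 (0.27) for immature against mature cells with equal library sums, Itpr2 there with quantile normalization (-0.18), and Atp2a3 for immature against double negative cells with median-ratio rescaling (-0.05). Median-ratio rescaling gave 4 members lower in immature than mature cells instead of 2, and it and quantile normalization each gave 4 higher than in double negative cells instead of 7. Leaving out 1 replicate gave 4 higher and 2 lower for immature against mature cells, 4 to 5 higher and 1 to 3 lower for mature against double negative cells, and 5 to 7 higher and 1 lower for immature against double negative cells. The 1 lower gene for mature against double negative cells came without mature replicate 2 or double negative replicate 1.

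All-gene calls were 8728, 7256 and 7563, and 5038, 4780 and 4456 with a mean of at least 5 RPKM, where fewer genes are tested. Without 1 replicate they ranged from 6335 to 9810, 4767 to 8982 and 5060 to 8848. Without mature replicate 2 the second count was 4767. Where a lone library was left, it was assumed to vary like the other groups. With the replicate number as a block they were 8407, 6803 and 7073, and the block changed no count among members; deviations of same-numbered libraries correlated at -0.009, 0.14 and -0.112, and although the populations came from the same islets, per the design text, it does not say that a number marks 1 pool. Voom called 8341, 9364 and 7113. EdgeR was not run on the recovered reads, since the deposited values are not counts. The immature depth limits Itpr2 and Orai1, with 56 to 114 reads per immature library.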

Other observations

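Among genes of mitochondrial calcium uptake, which takes up part of the calcium that the ER releases, all 11 in the table were tested. In immature against mature cells 3 were higher and 4 lower (after median-ratio rescaling 1 and 8), with a median log2 difference of -0.19 beside 0.29 over all tested genes. Slc8b1, the sodium-calcium exchanger that empties mitochondria of calcium, averaged 7.929 RPKM in immature beta cells, 0.8045 RPKM in mature beta cells and 1.391 RPKM in the double negative sort (immature minus mature 2.31, SE 0.11, limma adjusted p = 2.1e-05). Vdac1, the outer membrane channel, went the other way, at 55.17 against 84.61 RPKM (-0.61, SE 0.06), as did Grpel1 (-0.49, SE 0.06). Grpel1 was placed in this list and is in its counts and median, but it is not itself a gene of calcium uptake. The pore gene Mcu was higher in mature than in double negative cells (0.53, SE 0.09, limma adjusted p = 0.00303), where 5 of the 11 genes were higher and 3 lower. In immature against double negative cells 5 were higher and 2 lower as deposited, but 1 higher and 6 lower after either median-ratio rescaling or quantile normalization.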
